A study of Mus musculus with 12 samples.

Results

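The nuclear genes for the subunits of oxidative phosphorylation were followed through sorted epidermal stem cells of mouse dorsal skin. A gene was a member when a probe set of the array carried exactly 1 symbol that named a subunit of a respiratory chain complex or of ATP synthase. The symbols were those starting with Ndufa (but not the assembly factors Ndufaf), Ndufb, Ndufc, Ndufs, Ndufv, Uqcr, Cox4 to Cox8 or Atp5, and the 4 symbols Sdha to Sdhd. This gave 82 genes on 107 probe sets, of 19938 gene symbols on the array. By complex the members were 36 genes of complex I, 4 of complex II, 8 of complex III, 17 of complex IV and 17 of complex V. The complexes follow the symbols: Ndufa4 is counted with complex I, although its protein is now assigned to complex IV, and Cox7a2l, a factor of respiratory supercomplexes, is counted with complex IV.

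The 12 arrays form 4 groups of 3, and 2 comparisons were made. In the first, basal cells of the interfollicular epidermis came from mice of 1 year of age that were either Bmal1 epidermal knockouts (KO) or wild type (WT), with 5 mice pooled per array. Bmal1, whose symbol is Arntl, is the transcription factor that drives the circadian clock together with CLOCK, and the Cre driver of the deletion is not given in the sources used here. In the second, bulge cells of the hair follicle came from Per1-Venus mice, in which a fluorescent protein reports the activity of the clock gene Per1, at 18 to 19 days of age. Cells bright for alpha6 integrin and positive for CD34 were split by Venus brightness, the bright cells being called clock-positive and the dim ones clock-negative, with about 20 mice per array; the labels of the clock-negative arrays also state the Venus-high gate, and the groups follow the titles and the design. All 12 RNA samples were amplified before labelling. Values are log2 intensities, a change is a difference of group means on that scale, and the error after ± is the standard error of the fit unless it is called SD. A gene was called when its adjusted p, taken over all 13956 genes tested in that comparison, was under 0.05. Nothing in the labels says how the pools of a group were made separate, so the p-values measure the spread between these arrays.

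Oxidative phosphorylation passes electrons from NADH (at complex I) and from succinate (at complex II) through complex III to complex IV, which reduces oxygen. Complexes I, III and IV pump protons out of the mitochondrial matrix, and complex V, ATP synthase, lets them back in and makes ATP. All of these complexes except II combine nuclear-encoded subunits, the subject here, with subunits encoded by mitochondrial DNA. The nuclear genes are known to share transcription factors, among them NRF1, GABPA (an ETS factor), YY1 and the ERR receptors. Epidermal stem cells are usually described as relying on glycolysis more than their differentiating progeny do, and the circadian clock is known to time redox and energy metabolism in many tissues.

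Promoter windows of 300 bases (250 before and 50 after the RefSeq start, assembly GRCm38.p6) were found for 67 of the 82 members, in 72 windows. Each motif was searched on both strands. An NRF1 core motif (GCATGCGC) lay in 10 of the 72 windows, 13.9%, against 3.52% of 21263 windows of protein-coding genes. The ETS motif CCGGAAG lay in 23.6% of the members' windows, against 11.6% of protein-coding ones, and the YY1 motif AAGATGGCG in 9.72%, against 1.83%. The ERR motif AAGGTCA was in 9.72% of members' windows and 4.08% of protein-coding ones. By contrast the shares lay closer for the E-box CACGTG, the element that BMAL1 and CLOCK bind, at 9.72% against 7.84%, and for the Sp1 motif GGGCGG, at 40.3% against 46.2%. The RORE letters TAGGTCA were in 3 members' windows, 4.17%, against 2.32%. The median GC content was 57.5% for members and 56.3% for protein-coding windows. The E-box windows belonged to Ndufa7 (in both of its windows), Ndufv1, Atp5g1, Atp5g3, Atp5l and Atp5pb. A match is a run of letters, not a bound site.

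The windows of 6 genes follow, chosen because the results turn on them: Ndufa11, Ndufb5 and Sdhb, and Cox6b2, which were called higher in clock-positive bulge cells under every scaling tried, and Uqcr11 and Atp5e, which had the largest epidermal changes of complexes III and V. Capitals mark the NRF1 core, ETS and YY1 motifs, on either strand. Ndufa11 holds 2 overlapping NRF1 motifs, Sdhb and Uqcr11 each hold an NRF1 motif and an ETS motif, Atp5e holds an ETS motif, and the windows of Ndufb5 and Cox6b2 hold none of the 3.
Ndufa11, chr17:56717512-56717811, plus strand: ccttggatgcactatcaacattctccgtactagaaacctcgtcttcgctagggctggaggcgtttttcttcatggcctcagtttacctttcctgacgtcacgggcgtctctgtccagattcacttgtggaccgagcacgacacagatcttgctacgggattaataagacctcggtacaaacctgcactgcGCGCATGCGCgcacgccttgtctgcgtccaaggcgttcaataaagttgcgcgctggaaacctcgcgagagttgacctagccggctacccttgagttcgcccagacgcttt
Ndufb5, chr3:32736813-32737112, plus strand: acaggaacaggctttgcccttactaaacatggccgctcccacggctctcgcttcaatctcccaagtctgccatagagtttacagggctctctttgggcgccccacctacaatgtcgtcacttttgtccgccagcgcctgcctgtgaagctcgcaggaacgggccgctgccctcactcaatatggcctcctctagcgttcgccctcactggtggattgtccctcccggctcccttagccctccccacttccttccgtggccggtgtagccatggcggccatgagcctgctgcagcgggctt
Sdhb, chr4:140961021-140961320, plus strand: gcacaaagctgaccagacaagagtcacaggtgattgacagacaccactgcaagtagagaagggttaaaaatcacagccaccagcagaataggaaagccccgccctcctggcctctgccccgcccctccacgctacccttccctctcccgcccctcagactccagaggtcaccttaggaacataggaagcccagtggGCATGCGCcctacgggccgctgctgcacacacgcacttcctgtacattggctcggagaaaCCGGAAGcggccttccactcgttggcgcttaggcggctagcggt
Uqcr11, chr10:80406772-80407071, minus strand: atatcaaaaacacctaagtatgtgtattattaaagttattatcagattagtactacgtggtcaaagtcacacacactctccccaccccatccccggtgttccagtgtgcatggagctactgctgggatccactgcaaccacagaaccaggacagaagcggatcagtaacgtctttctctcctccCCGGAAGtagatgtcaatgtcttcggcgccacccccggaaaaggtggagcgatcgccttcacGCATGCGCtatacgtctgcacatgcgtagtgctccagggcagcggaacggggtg
Cox6b2, chr7:4753045-4753344, minus strand: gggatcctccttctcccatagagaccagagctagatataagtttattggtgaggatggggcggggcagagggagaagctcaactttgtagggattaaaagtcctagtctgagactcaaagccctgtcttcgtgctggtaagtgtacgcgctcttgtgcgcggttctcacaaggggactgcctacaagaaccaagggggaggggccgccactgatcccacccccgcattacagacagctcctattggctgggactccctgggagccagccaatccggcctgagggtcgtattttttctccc
Atp5e, chr2:174464052-174464351, minus strand: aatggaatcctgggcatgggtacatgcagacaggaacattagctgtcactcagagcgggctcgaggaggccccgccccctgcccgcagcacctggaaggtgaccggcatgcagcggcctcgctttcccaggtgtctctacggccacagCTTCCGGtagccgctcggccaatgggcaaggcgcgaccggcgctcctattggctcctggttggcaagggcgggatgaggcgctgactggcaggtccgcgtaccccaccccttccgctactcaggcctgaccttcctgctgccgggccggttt

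The labels were checked first. In epidermis Arntl, the targeted gene, read 9.85, 9.60 and 9.55 on KO arrays 1, 2 and 3, against 9.27, 9.47 and 9.34 on WT arrays, a change of 0.30 ± 0.12 with an adjusted p of 0.53. The RNA level of the targeted gene was thus not lower on the KO arrays, and whether the probes lie outside the deleted part is not given in the sources used here. Nr1d1, a direct target of BMAL1, was 8.63, 8.39 and 8.44 on KO arrays, against 12.28, 12.52 and 12.60 on WT arrays, 15.8-fold lower (adjusted p = 1.08e-05), and separates the groups as labelled. The basal keratins Krt5 and Krt14 read 13.47 or more on all 6 epidermal arrays. Per1 in epidermis read 10.30, 9.19 and 9.02 on KO arrays, against 9.94, 9.68 and 10.42 on WT arrays, and was not called (-0.51 ± 0.33, adjusted p = 0.844). In the bulge, Per1 averaged higher in clock-positive cells by 0.51 ± 0.07 (adjusted p = 0.000195), which the sort on the Per1 reporter would select. Nr1d1 did not separate the bulge groups, with a change of 0.076 ± 0.063 (adjusted p = 0.298), and Arntl was higher in clock-positive cells by 0.164 ± 0.065 (adjusted p = 0.047). The bulge marker Cd34 read 10.98, 10.95 and 10.98 in clock-positive cells, against 9.55, 9.44 and 9.58 in clock-negative cells, although both groups were gated for CD34.

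In epidermis, KO array 3 was the lowest of the 6 arrays for 32.2% of all genes and KO array 1 the highest for 40.3%, while WT array 1 was the lowest for 34.6%, against 4.76% and 5.61% for WT arrays 2 and 3. WT array 1 also differed from the other WT arrays in markers of other cells. Of the 7 T cell markers on the array 4 were tested, and they did not move together. Cd3e, Cd3g and Cd7 averaged 7.61, 7.83 and 7.69 on KO arrays, against 8.51, 9.83 and 9.99 on WT arrays, so that WT array 1 lay between the KO arrays and the other WT arrays. Thy1 read 12.37, 12.12 and 12.17 on KO arrays, against 10.88, 11.20 and 11.00 on WT arrays, and was called higher (1.19 ± 0.12, adjusted p = 0.0155), with WT array 1 beside the other WT arrays. The 5 tested myeloid markers averaged 7.61, 7.70 and 7.33 on KO arrays, against 7.71, 8.93 and 9.41 on WT arrays. The 9 differentiated keratinocyte markers averaged 9.95, 10.06 and 9.93 on KO arrays, against 10.02, 10.66 and 10.67 on WT arrays, and for these last 2 lists WT array 1 lay close to or among the KO arrays. In the bulge, the arrays differed over most of their range: 45.2% of all genes tested were called higher and 18.3% lower in clock-positive cells, and the median change over all genes was 0.15, while the deposited array medians were 6.82 to 6.84 for clock-positive and 6.94 to 7.01 for clock-negative arrays. All 6 tested T cell markers and both red blood cell markers were called lower in clock-positive cells, 9 of 10 bulge stem cell markers and 7 of 8 endothelial markers higher. Of the 9 differentiated keratinocyte markers 4 were called lower, among them Lce1b (-1.90), Hrnr (-1.20) and Lor (-1.17), and 1 higher, Calml3 (0.59). Of the 6 tested melanocyte markers 5 were called lower and 1, Mitf, higher. In such pooled samples, fewer cells of a type and less RNA per cell cannot be told apart. The part of these cell types in the members' values was not tested.

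The members were brightly measured on both sets, apart from a few tissue-restricted isoforms. Of the 82, 81 were tested in each comparison; 71 of these were among the 3489 brightest genes tested in epidermis and 73 among the 3489 brightest in the bulge. The exception, Cox7b2, an isoform of complex IV known from human testis, fell among the 30% of genes with the lowest means and was left out, with mean intensities of 5.29 in epidermis and 4.63 in the bulge. Replicate arrays lay closer together for the members than for all genes, except over the WT arrays, where they lay farther apart. The median SD of a member was 0.092 over KO and 0.16 over WT arrays, and 0.041 over clock-positive and 0.053 over clock-negative arrays. For all genes these medians were 0.16, 0.14, 0.061 and 0.096.

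In the Bmal1 KO epidermis none of the 81 subunit genes was called. The smallest adjusted p was 0.643, and 0 genes had an unadjusted p under 0.05 in limma, although 7.96% of all genes did; with cyclic loess scaling 5 members had an unadjusted p under 0.05 and again 0 were called. The background of calls was low: 0.0788% of all genes were called higher and 0.115% lower. The changes of the members were small and mostly of the same sign. They ran between -0.12 for Cox4i2 and 0.38 for Uqcr11, with a median of 0.12 against -0.012 for all genes, and 70 of 81 were above 0, against 46.5% of all genes. In 7 members every KO array lay above every WT array (8.64% of members, against 4.11% of all genes) and in 0 members below (8.56% of all genes). The absence of calls with 3 arrays a group does not show that these genes did not differ.

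Those shares moved with WT array 1. It was the lowest of the 6 arrays for 64 of 81 members, 79.0%, and KO array 1 was the highest for 53, 65.4%, against 40.3% of all genes. Averaged over the members, the deviation from each gene's mean was 0.14, 0.054 and -0.013 on KO arrays 1, 2 and 3, against -0.26, 0.017 and 0.068 on WT arrays. WT arrays 2 and 3 thus lay among the KO arrays, and WT array 1 lay below all of them. Without WT array 1 the median change of the members was 0.022, with 54 of 81 above 0 (all genes, 32.9%) and a median of -0.059 for all genes. With KO array 1 left out as well, a setting chosen after seeing the data, the median was -0.014, 31 of 81 were above 0 (all genes, 26.0%), and 0 members were called. The median of all genes was then -0.119, so that the members lay 0.105 above it, against 0.132 with all 6 arrays. Of all 13956 genes, 332 were called higher and 1037 lower in that setting.

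**Figure D1:**
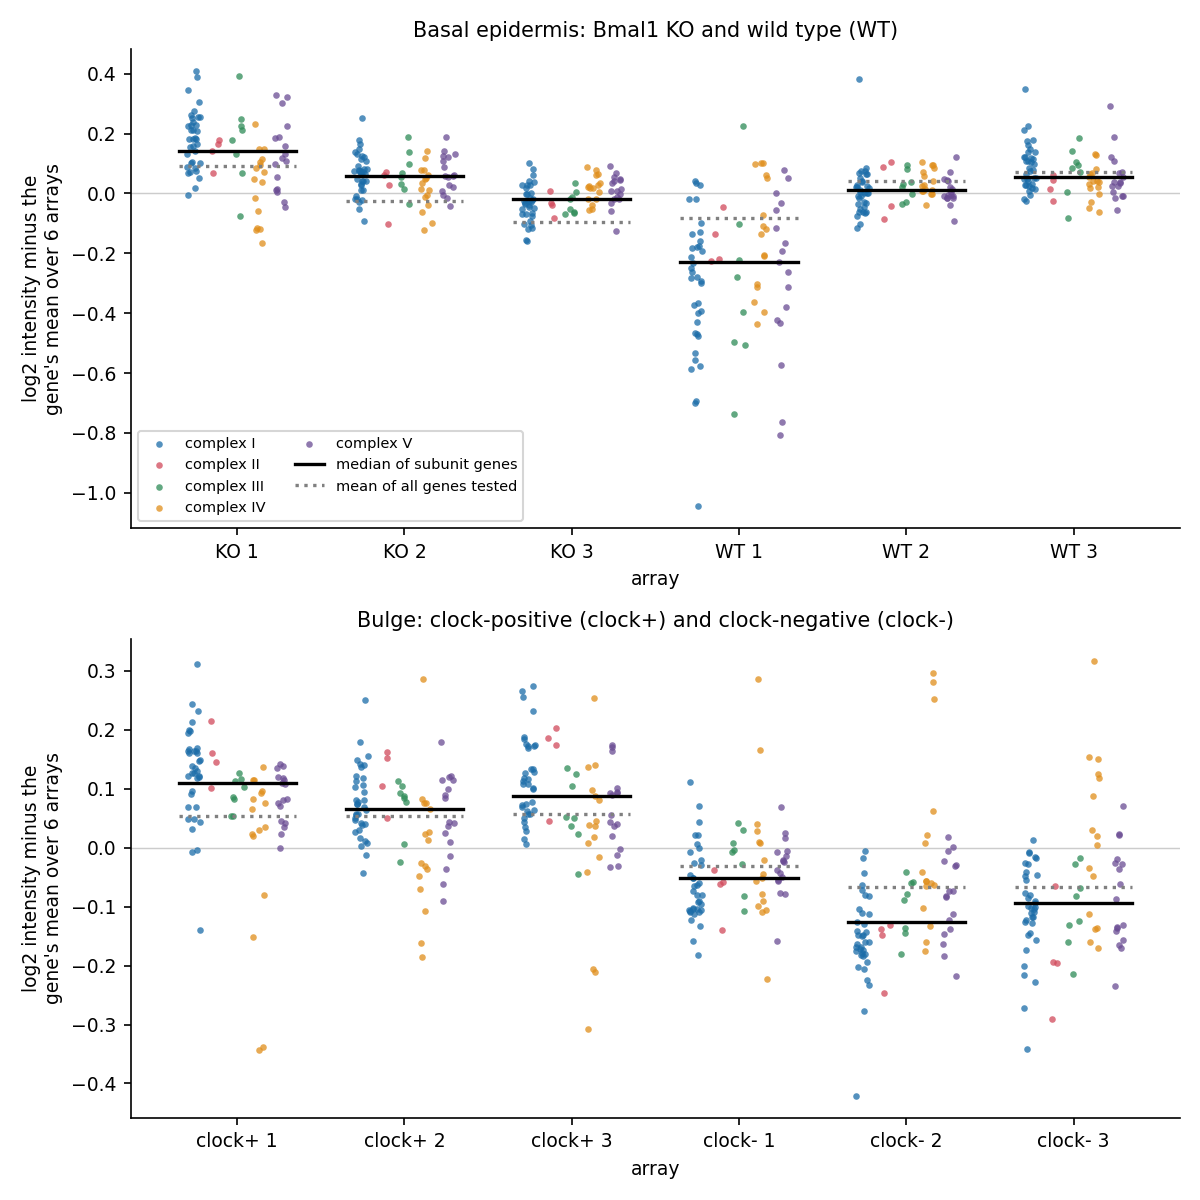
Deviation of each of 81 subunit genes from its own mean over 6 arrays (log2 intensity) on each array, with KO left of WT in the upper panel and clock-positive left of clock-negative in the lower panel; points are genes coloured by complex, solid lines are the medians of the subunit genes and dotted lines the means of all genes tested. WT array 1 stands alone with a mean deviation of -0.26, while the clock-positive and clock-negative arrays of the bulge separate, at 0.057 to 0.090 and -0.10 to -0.044.

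The gap of WT array 1 was uneven across members. Set against the mean of WT arrays 2 and 3, it was lower by a median of 0.26 for members (a difference of -0.26; all genes, -0.12), and 17 members, 21.0%, were more than 0.5 below, against 10.9% of all genes. The members farthest below were Ndufa4l2 (-1.41), Atp5d (-1.01), Atp5e (-0.89) and Uqcr11 (-0.82), while Uqcrb, a complex III subunit, lay 0.28 above. Genes of glycolysis shared the gap, with a mean deviation of -0.39 on WT array 1. The 2 transcripts of mitochondrial DNA with a symbol of their own on the array did not: COX2, a catalytic subunit of complex IV, read 12.85, 13.00 and 13.13 on KO arrays, against 13.33, 13.02 and 12.91 on WT arrays. ND3, a membrane subunit of complex I, read 10.83, 11.00 and 10.98 on KO arrays, against 11.28, 10.94 and 10.82 on WT arrays, so that both were highest on the array where most nuclear subunits were lowest.

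**Figure D2:**
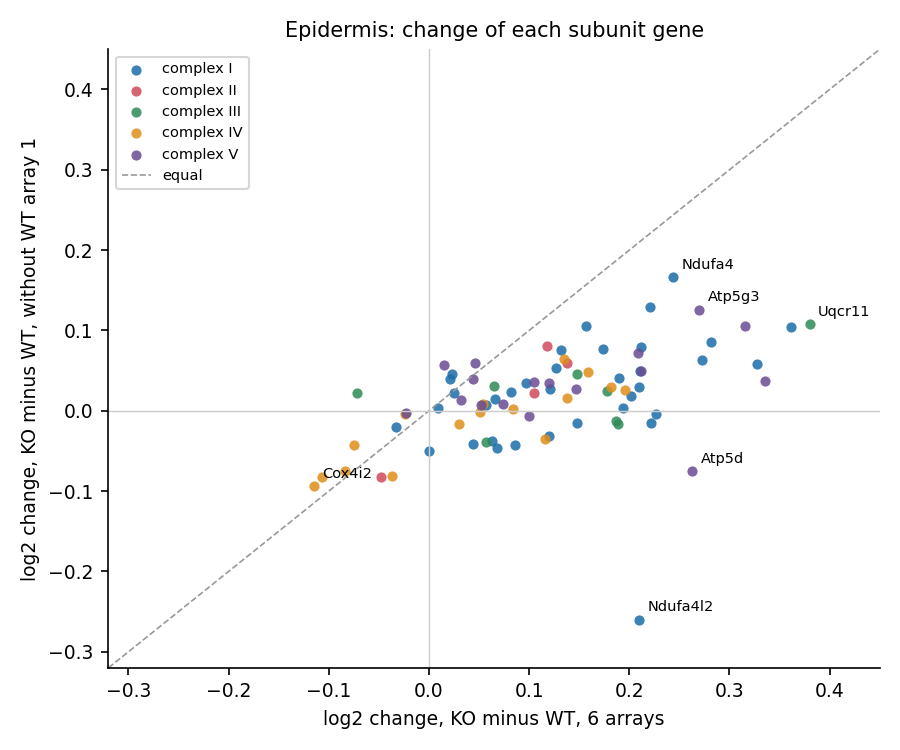
Change of each of 81 subunit genes in epidermis (log2, KO minus WT) with all 6 arrays on the x axis and without WT array 1 on the y axis, coloured by complex; the dashed line marks equal values. Most points with a positive change lie below the line, and the median falls to 0.022 without WT array 1, against 0.12 with it.

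Complex I, which takes electrons from NADH, had 34 of its 36 genes above 0 and a median change of 0.14. In 2 genes, Ndufa4 and Ndufa12, every KO array lay above every WT array, a share of 5.56% near the 4.11% of all genes. Ndufa4 had the smallest p of all members. It read 12.27, 12.21 and 12.15 on KO arrays, against 11.80, 12.02 and 12.06 on WT arrays, a change of 0.24 ± 0.11 (adjusted p = 0.643). Its highest WT array lay just under the lowest KO array. Ndufs8, a core subunit that carries iron-sulphur clusters, read 9.98, 9.75 and 9.53 on KO arrays, against 8.88, 9.61 and 9.69 on WT arrays, a change of 0.36 ± 0.22 (adjusted p = 0.82). There the groups overlapped and WT array 1 alone was low. Ndufb8 and Ndufv3, an accessory subunit of the membrane arm and a small accessory subunit of the NADH-binding module, had changes of 0.28 ± 0.17 and 0.22 ± 0.12 (adjusted p = 0.813 and 0.77). Ndufa4l2, a paralog of Ndufa4 that hypoxia is known to induce, changed sign with the array: it was 12.17, 12.10 and 11.93 on KO arrays, against 10.91, 12.34 and 12.30 on WT arrays, giving 0.21 ± 0.35 with all arrays and -0.26 without WT array 1. The 6 core subunits had a median change of 0.13 and the 30 accessory subunits 0.14.

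Complex II, succinate dehydrogenase, is the entry point for electrons from the citric acid cycle and has 4 subunits, all nuclear. Sdhb, the iron-sulphur subunit, read 11.70, 11.58 and 11.49 on KO arrays, against 11.30, 11.48 and 11.58 on WT arrays. Sdha, the flavoprotein that oxidises succinate, read 11.87, 11.70 and 11.76 on KO arrays, against 11.76, 11.91 and 11.82 on WT arrays. The membrane anchors Sdhc and Sdhd had changes of 0.10 ± 0.12 and 0.12 ± 0.10, and the groups overlapped for all 4 genes, whose smallest adjusted p was 0.907.

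In complex III, which passes electrons from ubiquinol to cytochrome c, the median change was 0.16. Uqcr11, a small accessory subunit, had the largest change of any member at 0.38 ± 0.23 (adjusted p = 0.81). It read 11.60, 11.40 and 11.20 on KO arrays, against 10.47, 11.30 and 11.28 on WT arrays, and WT arrays 2 and 3 lay within the range of the KO arrays. The core protein Uqcrc1, Uqcr10, Uqcrq and the Rieske iron-sulphur protein Uqcrfs1 had changes of 0.19 ± 0.18, 0.19 ± 0.18, 0.18 ± 0.14 and 0.15 ± 0.13. Uqcrb read 12.33, 12.37 and 12.41 on KO arrays, against 12.63, 12.37 and 12.32 on WT arrays, and was the complex III gene whose change lay below 0 (-0.072).

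Complex IV, cytochrome c oxidase, had the smallest median change, 0.053. The 10 broadly expressed genes had a median of 0.13 and the 6 tested tissue-restricted isoforms (Cox4i2, Cox6a2, Cox6b2, Cox7a1, Cox8b and Cox8c) a median of -0.079, with 5 of 6 below 0. Cox6c read 12.78, 12.76 and 12.70 on KO arrays, against 12.47, 12.69 and 12.67 on WT arrays, and was the complex IV gene whose groups did not overlap among those tested, the lowest KO array lying just above the highest WT array. That is 6.25% of the tested complex IV genes, against 4.11% of all genes. Cox4i1, the common form of the regulatory subunit 4, had a change of 0.18 ± 0.15, and Cox5a and Cox7a2l had 0.16 ± 0.12 and 0.20 ± 0.16. The lung isoform Cox4i2 read 7.40, 7.39 and 7.58 on KO arrays, against 7.62, 7.52 and 7.58 on WT arrays. Cox6a1, Cox6b1, Cox7a2, Cox7b and Cox8a had changes between -0.024 (Cox7b) and 0.14 (Cox7a2). For the restricted isoforms Cox6a2, Cox6b2, Cox7a1, Cox8b and Cox8c the changes ran between -0.11 (Cox7a1) and 0.030 (Cox6b2), with adjusted p of 0.919 or more.

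Complex V, ATP synthase, held 4 of the 7 members whose KO arrays all lay above the WT arrays: Atp5g3, Atp5l, Atp5md and Atp5mpl. They were 23.5% of the 17 genes of the complex, against 4.11% of all genes. For Atp5md and Atp5mpl the gap was very small. Their lowest KO arrays read 12.465 and 12.853, and their highest WT arrays 12.461 and 12.848. The changes of these genes were 0.046 ± 0.092 and 0.105 ± 0.103. Atp5g3, one of the genes for the c subunit of the rotating ring, read 12.13, 12.02 and 11.98 on KO arrays, against 11.48, 11.90 and 11.93 on WT arrays, a change of 0.27 ± 0.14 (adjusted p = 0.73). The other c-subunit genes, Atp5g1 and Atp5g2, had changes of 0.32 ± 0.18 and 0.10 ± 0.12. Atp5l, subunit g of the membrane part, read 12.38, 12.40 and 12.37 on KO arrays, against 11.90, 12.32 and 12.30 on WT arrays. In both genes WT array 1 was the low array. Atp5e, the epsilon subunit of the catalytic part, read 12.19, 12.01 and 11.90 on KO arrays, against 11.11, 11.94 and 12.06 on WT arrays, and its groups overlapped. The catalytic beta subunit Atp5b and the gamma subunit Atp5c1 had changes of 0.032 ± 0.092 and 0.044 ± 0.094.

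Related genes gave no call either. Of the tested genes, 0 of 43 assembly factors, 0 of 17 citric acid cycle genes, 0 of 27 genes of mitochondrial import and chaperones, 0 of 19 biogenesis regulators, 0 of 18 electron carrier and ATP export genes, 0 of 17 glycolysis genes, 0 of 77 mitochondrial and 0 of 58 cytosolic ribosomal protein genes passed in limma, with 2, 0, 0, 0, 1, 0, 0 and 2 genes at an unadjusted p under 0.05. Several of these lists also lay mostly above 0, against 46.5% of all genes: 15 of 17 citric acid cycle genes (median 0.069), 23 of 27 import and chaperone genes (0.10) and 63 of 77 mitochondrial ribosomal protein genes (0.081). On WT array 1 their mean deviations were -0.19, -0.235 and -0.24, against -0.26 for the subunits. Without that array 11 of 17, 13 of 27 and 38 of 77 of their changes were above 0, with medians of 0.014, -0.003 and -0.002, against 32.9% above 0 and a median of -0.059 for all genes. The smallest p among assembly factors belonged to Ttc19, a factor of complex III, at -0.47 ± 0.12 (adjusted p = 0.294). In the other lists the smallest p belonged to Mdh2 of the citric acid cycle (0.35 ± 0.18), the import receptor Tomm20 (0.24 ± 0.11), the coactivator Ppargc1a (0.28 ± 0.14), Pdss2 of ubiquinone synthesis (-0.32 ± 0.12), the glycolytic enzyme Pgam1 (0.37 ± 0.23), Mrpl28 (0.33 ± 0.18) and Rpl12 (-0.46 ± 0.14), with adjusted p of 0.367 or more.

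In the bulge the comparison of clock-positive with clock-negative cells gave calls for 51 members, all small. In limma 47 of 81 subunit genes were called higher, 58.0% against 45.2% of all genes, and 4 were called lower, 4.94% against 18.3%. The changes ran between -0.49 for Cox8c and 0.50 for Ndufa11 (a fold of 1.41), and 0 members were called with a fold of 1.5 or more, against 7.22% of all genes. The median change was 0.18, and 0.031 relative to the median of all genes. In 58 members every clock-positive array lay above every clock-negative array (71.6% of members, against 50.1% of all genes), and in 4 below (19.1% of all genes). The change was above 0 in 72 members on the deposited scale, against 68% of all genes; it was above 0 in 64 after quantile normalization (all genes, 62.3%) and in 48 after cyclic loess (56.5%).

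The count differed with the brightness of the members and with the scaling of the arrays. Among the 3489 brightest genes, 62.0% were called higher with a median change of 0.21, and of the 73 members there 45 were called higher, with a median of 0.20. Among the 3489 dimmest genes tested the median change was -0.19 and 48.2% were called lower, as were 3 of the 4 members there. With each array centred on its median, 69 members were called higher (64% of all genes) and 2 lower (9.71%). Quantile normalization gave 23 higher (all genes, 29.5%) and 2 lower (12.2%), and cyclic loess 5 higher (25.3%) and 3 lower (15.8%). With the dimmest 50% of genes left out, 50 of 77 members were called higher (59.7% of all genes) and 1 lower (7.42%), and with all 12 arrays in 1 fit 10 were called higher (25%) and 2 lower (12.9%). The median of the members relative to all genes stayed between 0.008 and 0.031 over the 4 scalings. The genes called under the deposited values and all 3 other scalings were Ndufa11, Ndufb5, Sdhb and Cox6b2, higher, and Cox6a2 and Cox8c, lower.

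**Figure D3:**
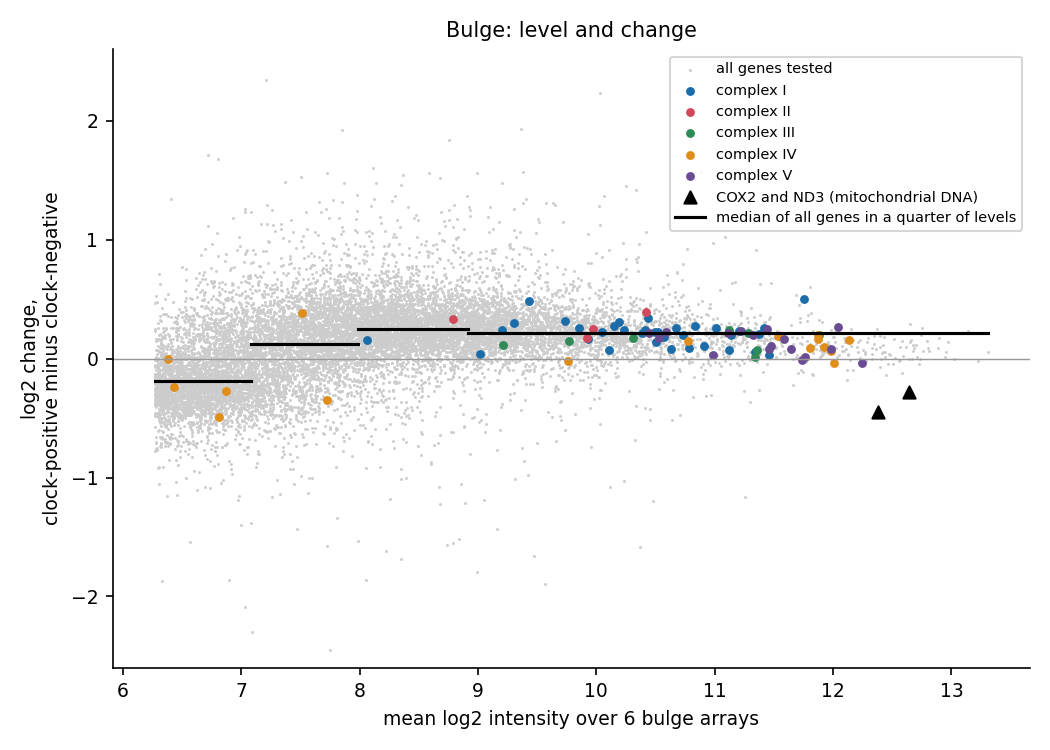
Mean log2 intensity over the 6 bulge arrays (x) and log2 change, clock-positive minus clock-negative (y), of all 13956 genes tested in grey, of the subunit genes coloured by complex, and of the mitochondrial-DNA genes COX2 and ND3 as triangles; black lines are the medians of all genes in 4 equal bins of 3489 genes by intensity. Most subunit genes lie near the median of the brightest bin, 0.21, the dim complex IV isoforms lie in the lower left, and COX2 and ND3 lie below 0.

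**Figure D4:**
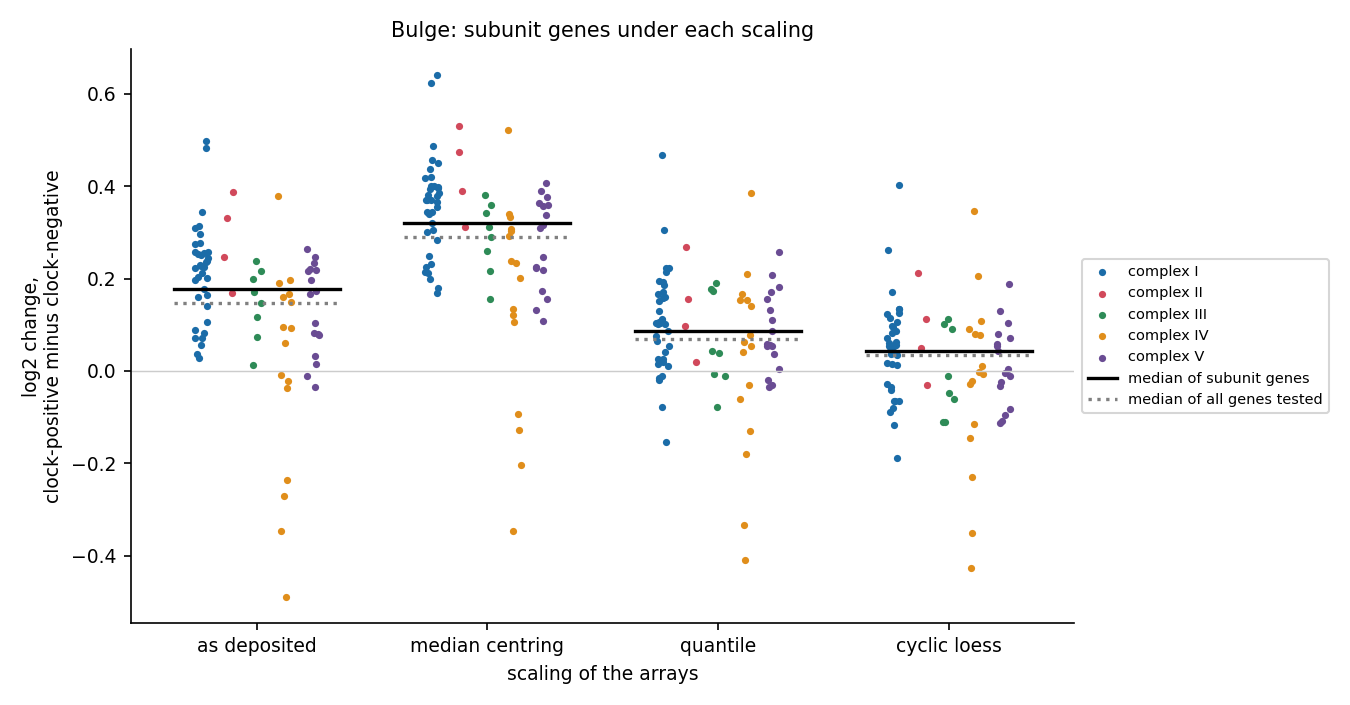
Log2 change of each subunit gene in the bulge, clock-positive minus clock-negative, under the deposited values and 3 other scalings of the arrays, coloured by complex; solid lines are medians of the subunit genes and dotted lines medians of all genes tested. Both lines move together, with subunit medians of 0.18, 0.32, 0.087 and 0.043 and all-gene medians of 0.15, 0.29, 0.069 and 0.035, in the order drawn.

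In complex I, 26 of 36 genes were called higher on the deposited scale, 72.2% against 45.2% of all genes, 0 were called lower and all 36 changes were above 0; its median change was 0.23, and relative to all genes 0.080 on the deposited scale, 0.034 after quantile normalization and 0.019 after cyclic loess. The genes called higher were 35 after median centring (97.2%, against 64% of all genes), 11 after quantile normalization (30.6% against 29.5%) and 2 after cyclic loess (5.56% against 25.3%), with 36, 31 and 26 of 36 changes above 0. The share called in complex I was thus above that of all genes on 2 scales, near it on the third and below it on the fourth. Most of its genes were bright, with levels of 8.06 to 11.75 and a median of 10.51. Of the 3489 brightest genes, at levels above 8.92, 62.0% were called higher on the deposited scale, with a median change of 0.215. Beside these the median of complex I, 0.227, was close, and its share of 72.2% was above. Ndufa11, an accessory subunit of the membrane arm, read 11.98, 12.004 and 12.02 in clock-positive cells, against 11.57, 11.53 and 11.41 in clock-negative cells. Its change was 0.50 ± 0.06 (adjusted p = 0.000173). The gap between the groups was several times their spread. Ndufb5, another membrane-arm subunit, read 9.74, 9.57 and 9.71 in clock-positive cells, against 9.36, 9.01 and 9.20 in clock-negative cells, a change of 0.48 ± 0.09 (adjusted p = 0.00137). Ndufa7, an accessory subunit with an E-box in its promoter window, read 10.60, 10.55 and 10.66 in clock-positive cells, against 10.35, 10.27 and 10.16 in clock-negative cells. For both genes the clock-positive arrays lay above all clock-negative arrays. Ndufs7, the core subunit that passes electrons to ubiquinone, and Ndufv1, the core subunit that binds NADH, were higher by 0.31 ± 0.06 and 0.31 ± 0.07 (adjusted p = 0.00168 and 0.00254), and Ndufs8 and the accessory subunit Ndufa6 by 0.30 ± 0.07 and 0.28 ± 0.06. The 6 core subunits had a median of 0.28 and the 30 accessory ones 0.22. Among the 10 complex I genes not called were Ndufa13 (0.027 ± 0.058), Ndufab1 (0.037 ± 0.097) and Ndufs1, the largest core subunit (0.16 ± 0.07, adjusted p = 0.0786). Ndufa4 was higher by 0.20 ± 0.06 (adjusted p = 0.0177), while Ndufa4l2 had a change of 0.082 ± 0.060 (adjusted p = 0.245).

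All 4 genes of complex II were called higher on the deposited scale, where 45.2% of all genes were. Their median change was 0.29, against 0.15 for all genes, and their levels ran from 8.79 to 10.42. Of the 3489 brightest genes, at levels above 8.92, 62.0% were called higher, with a median of 0.215. Of the next 3489, at levels above 7.99, 65.0% were, with a median of 0.249. After cyclic loess 1 gene of complex II was called, Sdhb, and 3 of 4 changes were above 0. Sdhb read 10.64, 10.58 and 10.63 in clock-positive cells, against 10.28, 10.18 and 10.23 in clock-negative cells, a change of 0.39 ± 0.06 (adjusted p = 0.000524). Sdhd read 8.95, 8.94 and 8.98 in clock-positive cells, against 8.73, 8.64 and 8.50 in clock-negative cells, a change of 0.33 ± 0.07 (adjusted p = 0.00269). In both genes the clock-positive arrays were tightly grouped and the groups did not overlap. Sdhc and Sdha were higher by 0.25 ± 0.07 and 0.17 ± 0.06 (adjusted p = 0.00987 and 0.031). Sdha lost its call after cyclic loess, where its change was -0.031.

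In complex III, 4 of 8 genes were called higher, Uqcr10, Uqcr11, Uqcrh and Uqcrc1, a share of 50% near the 45.2% of all genes. The median change was 0.16, or 0.011 relative to all genes. All 8 lay among the 3489 brightest genes, of which 62.0% were called higher with a median of 0.215, both above the values of complex III. After cyclic loess 0 were called, 3 of 8 changes were above 0 and the median was -0.029, so the direction of this complex turned with that scaling. Uqcr10 read 11.24, 11.23 and 11.26 in clock-positive cells, against 11.11, 10.99 and 10.91 in clock-negative cells (0.24 ± 0.07, adjusted p = 0.0122). Uqcr11 read 11.39, 11.37 and 11.40 in clock-positive cells, against 11.17, 11.19 and 11.15 in clock-negative cells (0.22 ± 0.06, adjusted p = 0.00878). The groups did not overlap in either gene, and the clock-negative arrays of Uqcr10 were more scattered than those of Uqcr11. Uqcrh, the hinge subunit that docks cytochrome c, was higher by 0.20 ± 0.06, and the core protein Uqcrc1 by 0.17 ± 0.06, which became -0.010 after cyclic loess. Uqcrb had a change of 0.012 ± 0.064.

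Of the 10 broadly expressed genes of complex IV 4 were called higher (Cox4i1, Cox8a, Cox7a2 and Cox6b1), 40.0% against 45.2% of all genes, and 0 lower, with a median relative to all genes of -0.024. All 10 lay among the 3489 brightest genes, of which 62.0% were called higher. Of the 6 tested restricted isoforms 1 was called higher and 4 lower, 66.7% against 18.3% of all genes, with a median of -0.25. These isoforms were dim, with mean levels of 6.38 to 7.73. Of the 3489 dimmest genes tested, at levels of 6.27 to 7.08, 48.2% were called lower. Of the next 3489 genes, at levels up to 7.99, 17.5% were. The median of the restricted isoforms was -0.11 after median centring, -0.081 after quantile normalization and -0.088 after cyclic loess, and under each of these Cox6a2 and Cox8c were called lower while Cox4i2 and Cox8b were not called. For complex IV as a whole the median was 0.076 on the deposited scale and -0.004 after cyclic loess. Cox4i1 read 11.99, 11.96 and 11.97 in clock-positive cells, against 11.82, 11.77 and 11.74 in clock-negative cells (0.20 ± 0.06, adjusted p = 0.0151), whereas Cox4i2 read 6.53, 6.82 and 6.85, against 6.88, 7.15 and 6.99 (-0.27 ± 0.10, adjusted p = 0.034). The heart and muscle isoform Cox6a2 read 7.57, 7.56 and 7.52 in clock-positive cells, against 7.67, 7.98 and 8.04 in clock-negative cells (-0.35 ± 0.09, adjusted p = 0.0079). Its broadly expressed counterpart Cox6a1 had a change of -0.037 ± 0.059. Cox8c, an isoform known from human testis, read 6.47, 6.62 and 6.60 in clock-positive cells, against 7.10, 7.11 and 6.96 in clock-negative cells, a change of -0.49 ± 0.07 (adjusted p = 0.000322). Cox8b, the muscle form, was lower by 0.24 (a change of -0.24 ± 0.09, adjusted p = 0.0331), and the common form Cox8a higher by 0.19 ± 0.06.

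Cox6b2, a testis isoform, went the other way from these dim isoforms: it read 7.54, 7.80 and 7.77 in clock-positive cells, against 7.29, 7.34 and 7.34 in clock-negative cells, a change of 0.38 ± 0.08 (adjusted p = 0.00204). Its ubiquitous counterpart Cox6b1 was higher by 0.16 ± 0.06 (adjusted p = 0.045). The muscle isoform Cox7a1 had a change of -0.008 ± 0.071, which became 0.21 after quantile normalization and 0.20 after cyclic loess and was then called higher, and Cox7b2, under the filter on dim genes, read 4.40, 4.50 and 4.60 in clock-positive cells, against 4.82, 4.82 and 4.64 in clock-negative cells. Of the 7 tested skeletal muscle markers, 4 were called lower in clock-positive cells, among them Ckm (-0.39) and Tnni2 (-0.37). That is 57.1%, against 18.3% of all genes. These markers had levels of 6.83 to 7.28. Of the 3489 dimmest genes, at levels up to 7.08, 48.2% were called lower, and of the next 3489 genes 17.5%. The mean level of the markers was 6.96, 7.06 and 6.98 in clock-positive cells, against 7.12, 7.26 and 7.20 in clock-negative cells. The 3489 dimmest genes as a whole had a median of -0.19, and the part of either in the isoform values was not tested. Cox7a2, Cox7a2l, Cox7b and Cox5a had changes of 0.17 ± 0.06, 0.15 ± 0.06, 0.092 ± 0.064 and -0.022 ± 0.087, and Cox5a was called lower after cyclic loess.

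**Figure D5:**
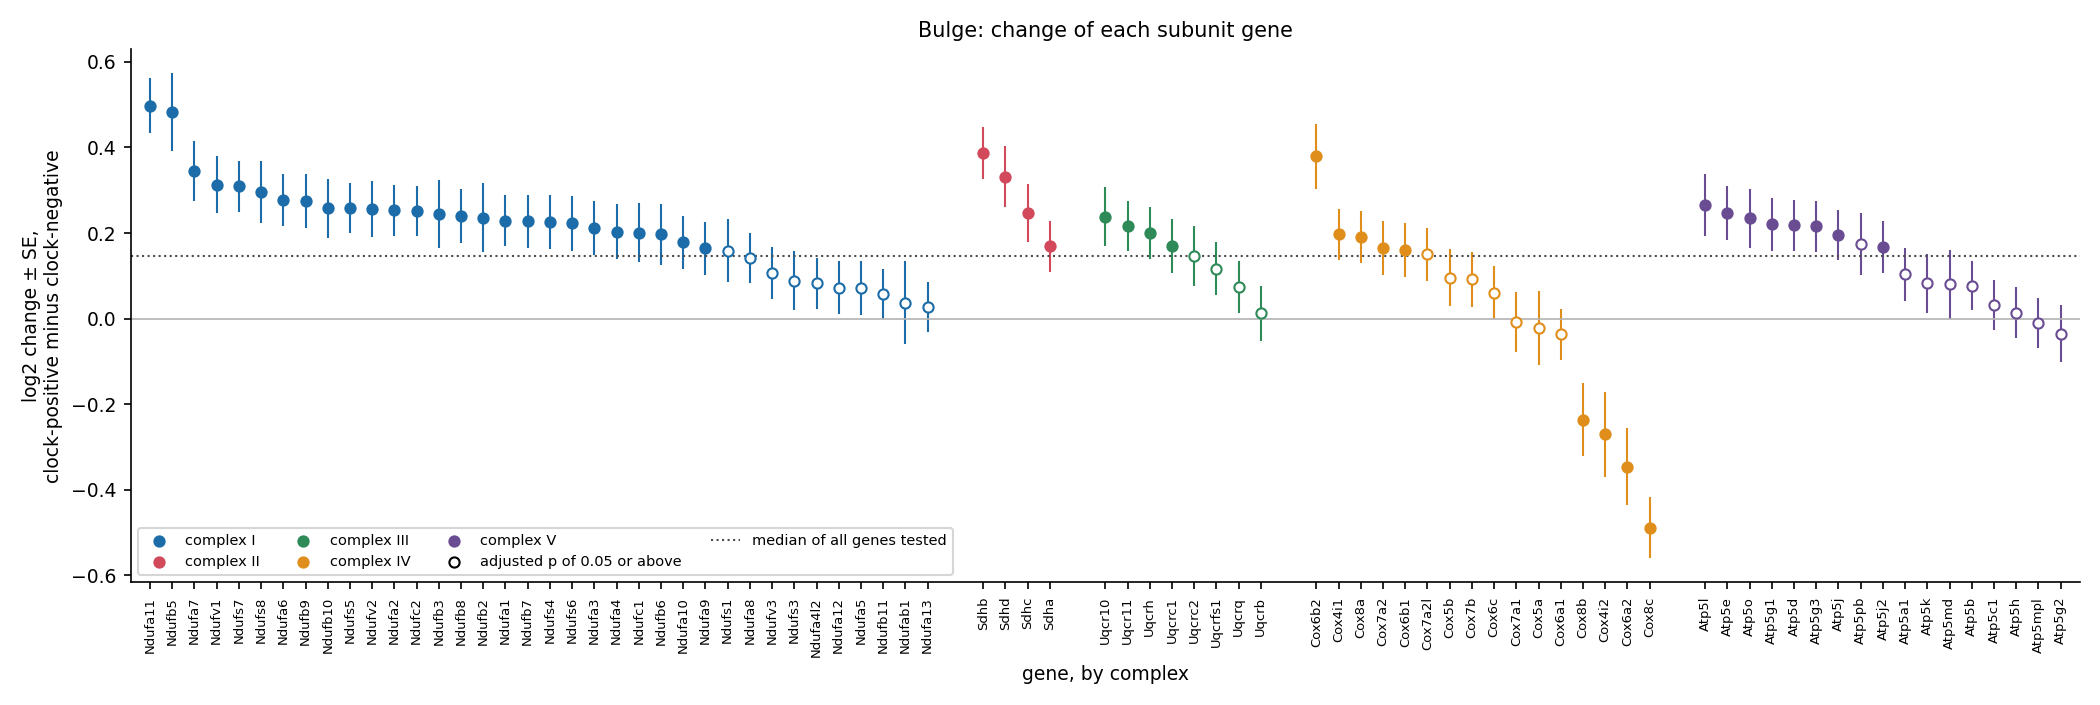
Log2 change with its standard error, clock-positive minus clock-negative, for each of 81 subunit genes in the bulge, grouped by complex and sorted within it; filled points have an adjusted p under 0.05, open points do not, and the dotted line is the median of all genes tested, 0.15. On this deposited scale all points of complexes I, II and III lie above 0 (after cyclic loess 26 of 36, 3 of 4 and 3 of 8 do), and the 4 filled points below 0 belong to complex IV.

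In complex V, 8 of 17 genes were called higher, a share of 47.1% near the 45.2% of all genes, and 0 lower. The median was 0.17, or 0.020 relative to all genes. All 17 lay among the 3489 brightest genes, of which 62.0% were called higher with a median of 0.215. Share and median were thus below those of the 3489 brightest genes. Those genes had levels of 8.92 to 13.31, against 10.44 to 12.25 in complex V. A comparison at the levels of complex V alone was not made. After cyclic loess 0 genes of complex V were called, with a median of 0.005. Atp5l had the largest change: it read 12.16, 12.22 and 12.14 in clock-positive cells, against 11.89, 12.04 and 11.81 in clock-negative cells (0.26 ± 0.07, adjusted p = 0.00943). Atp5e read 11.52, 11.56 and 11.62 in clock-positive cells, against 11.39, 11.30 and 11.27 in clock-negative cells (0.25 ± 0.06, adjusted p = 0.00712). The groups did not overlap in either gene. The delta subunit Atp5d was higher by 0.22 ± 0.06. Of the c-subunit genes, Atp5g1 and Atp5g3 were each higher by 0.22 ± 0.06, while Atp5g2 had -0.035 ± 0.066. This contrast depends on the probe set chosen. The probe sets of Atp5g2 had changes of -0.084 to 0.215, and those of Atp5g1 changes of 0.007 to 0.22. The alpha, beta and gamma subunits of the catalytic head, Atp5a1, Atp5b and Atp5c1, were not called, with changes of 0.10 ± 0.06, 0.077 ± 0.058 and 0.032 ± 0.059.

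Different probe sets of a gene gave different answers in the bulge more often than in epidermis. Among the 17 members with several probe sets, all probe sets shared the sign of the change in 16 genes in epidermis and in 10 genes in the bulge, and the median range between probe sets was 0.036 and 0.10. The widest bulge ranges were those of Atp5h (-0.96 to 0.014), Atp5md (-0.30 to 0.30) and Atp5l (-0.26 to 0.26), so the call for Atp5l holds for the brightest of the 5 probe sets measured in the bulge and not for all of them; its remaining probe set was measured in epidermis alone. Many of these genes have processed pseudogenes, and probe sets that read more than 1 copy would not be told apart here.

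The 2 transcripts of mitochondrial DNA were called in the opposite direction to most nuclear subunits. COX2 read 12.22, 12.17 and 12.09 in clock-positive cells, against 12.58, 12.55 and 12.69 in clock-negative cells, a change of -0.45 ± 0.07 (adjusted p = 0.000419). It was called lower under all 4 scalings. ND3 read 12.52, 12.51 and 12.48 in clock-positive cells, against 12.80, 12.78 and 12.78 in clock-negative cells (-0.28 ± 0.06, adjusted p = 0.00224), and lost its call after median centring (adjusted p = 0.0873). Whether these probe sets also read nuclear copies of mitochondrial sequence was not tested. Tfam, which packages and transcribes mitochondrial DNA, was higher in clock-positive cells: it read 7.12, 6.74 and 7.03, against 6.41, 6.17 and 6.26 in clock-negative cells (0.68 ± 0.10, adjusted p = 0.000377), and stayed called under the 4 scalings.

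The other mitochondrial lists are read against the same background of 45.2% higher and 18.3% lower. Brighter genes had other shares. Of the 3489 brightest 62.0% were called higher and 2.81% lower, and of the next 3489 65.0% and 4.73%. The median levels of the lists below, biogenesis regulators (7.90) aside, lay in those ranges, at 8.26 or more. Only the mitochondrial ribosomal proteins (81.8%) and the citric acid cycle (76.5%) were called higher more often than those brighter genes. The mitochondrial ribosomal proteins had the largest share, 63 of 77 higher and 0 lower with a median of 0.29, followed by the citric acid cycle, 13 of 17 higher and 0 lower with a median of 0.25. The cycle genes Idh2 and Suclg2 were higher by 0.46 ± 0.06 and 0.49 ± 0.08. Among assembly factors 24 of 42 were higher and 0 lower, led by Uqcc1 (0.66 ± 0.08), a complex III factor, and Sdhaf4 (0.60 ± 0.08), which assists complex II. Import and chaperone genes were higher in 14 of 27 cases and lower in 0, electron carriers and ATP export in 10 of 18 and 0, biogenesis regulators in 9 of 19 and 1, and glycolysis genes in 10 of 17 and 1. The genes with the smallest p there were Timm17b of the inner-membrane import channel (0.48 ± 0.07), Coq6 of ubiquinone synthesis (0.34 ± 0.07), the mitochondrial transcription factor Tfb2m after Tfam (0.43 ± 0.07), and the glycolytic enzymes Aldoc (0.58 ± 0.06) and Pfkm (0.52 ± 0.06). The cytosolic ribosomal proteins had 9 of 58 higher and 3 lower, with a median of 0.064. These shares, like those of the subunits, are on the deposited scale.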

How the data were processed

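Gene expression was measured on whole-transcript arrays in 12 samples. The submitters' processing notes name RMA, a background correction, normalization and summary method, and the values deposited by the authors are on a log2 scale; the settings are not given in the sources used here. Since 28853 probe sets have values in epidermis and 34760 in the bulge, separate normalization of the 2 sets is likely, and each was tested only within itself. An array has no read depth, and the number of arrays limits the precision; detection above background is not given.

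Symbols came from the platform annotation. Of several probe sets of a gene, preference went to those with values on all 12 arrays and among these to the highest mean. Dim genes, the lowest 30% by mean in a comparison, were left out, and 13956 genes were fitted with limma 3.58.1 in R 4.3.3 (lmFit and eBayes, no trend, two-sided, Benjamini-Hochberg over all genes tested, threshold 0.05), a method checked on simulated data. KO was compared with WT and clock-positive with clock-negative, each over its own 6 arrays. Alternatives were other scalings, filters, priors, probe set rules, a replicate block, all 12 arrays in 1 fit, and leaving out arrays. The members and the lists were chosen with earlier results of these data known. Named were the clock checks, the isoform genes, complex II, up to 4 genes per complex with the smallest p, up to 10 called genes per direction with the largest change and groups that did not overlap, and 2 genes per related list; others (Ndufa12, Ndufa13, Ndufab1, Ndufs1 and Uqcrb among them) were chosen after their values were seen. Promoters are RefSeq's, assembly GRCm38.p6.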

Additional observations from a re-analysis of the deposited data

How the results depend on the processing

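In epidermis the count of subunit genes called stayed at 0 under each alternative run. The count over all 13956 genes, 11 higher and 16 lower, did move. It became 44 and 41 after cyclic loess, and 332 and 1037 without both arrays numbered 1. In the bulge the 47 called higher became 23 after quantile normalization, 5 after cyclic loess and 10 with all 12 arrays in 1 fit, and 29 to 53 when 1 array was left out; 29 was reached without clock-positive array 1 and without clock-positive array 3. The 4 called lower became 2 after median centring, 2 after quantile normalization, 2 with all 12 arrays in 1 fit, 1 with the lowest 50% left out, and 2 to 3 when 1 array was left out. Of the genes called, 25 higher and 2 lower were called without any 1 array. The median of the members relative to all genes, 0.031, became -0.017 with the lowest 50% left out and 0.169 with no filter on dim genes, where the dim genes that are then added lower the median of all genes. Over all 81 members the sign of the bulge change turned for 5 after median centring, 10 after quantile normalization and 26 after cyclic loess. Of the genes called on the deposited scale 3 turned, all after cyclic loess: Sdha (-0.031), Uqcrc1 (-0.010) and Ndufa9 (-0.035, against a called 0.164). Cox7a1 turned after quantile normalization (0.210) and cyclic loess (0.205) and was then called. The cause was not tested. The deviations of same-numbered arrays had correlations of 0.241, 0.260 and -0.061 in the bulge and -0.442, 0.0427 and -0.525 in epidermis; in neither set were all 3 above 0.1, so the numbers were not taken as pairs. With the replicate number as a block, 0 members were called in epidermis, where 0 of all genes were called higher and 3 lower. In the bulge 48 members were then called higher, 59.3% against 47.0% of all genes, and 4 lower. With 3 arrays a group, changes in epidermis as small as those of the members are within the spread between arrays.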
